A study of Mus musculus with 4 samples.

Results

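The genes described here are 8 through which endothelium acts on blood clotting and on the removal of clots. They were chosen by name, with earlier results of these data known. Every non-control probe was taken whose gene name on the array was Vwf, F8, F3, Thbd, Procr, Tfpi, Plat or Plau. That gave 12 probes of 39429 on the array, and 8 genes of 30195 distinct gene names. Vwf, F8 and F3 promote clotting, Thbd, Procr and Tfpi restrain it, and Plat and Plau start the breakdown of fibrin.

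The levels were measured in cells of mouse spleen that carry CD31, a surface protein of endothelium that platelets and megakaryocytes also bear. All mice were heterozygous for a green fluorescent protein (GFP) placed at the Ackr4 locus, written Ackr4GFP/wt, so both groups carry 1 reporter allele. ACKR4-positive cells were living CD45-negative, CD31-positive cells with GFP, and ACKR4-negative cells were the same kind of cells without GFP. Each group has 2 arrays, 1 from each of 2 independent sorts, and each sort pooled 2 to 3 mice. Arrays of the 2 groups that share a mouse number in their sample titles are read here as the same pooled animals in 1 sort. The age of the animals is not given in the sources used here. GFP reports activity of the Ackr4 locus, and the spleen holds several kinds of CD31-positive vessel that these groups do not separate further.

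Clotting starts when tissue factor, the product of F3, meets clotting factors of the plasma, and thrombin then turns fibrinogen into fibrin. Resting endothelium keeps tissue factor off its surface, displays thrombomodulin and the endothelial protein C receptor, which together turn thrombin toward activating the anticoagulant protein C, and makes tissue factor pathway inhibitor. Endothelium also stores von Willebrand factor, which tethers platelets and carries factor VIII, and secretes tissue plasminogen activator, which makes the fibrin-cutting enzyme plasmin.

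Several of the genes were read by more than 1 probe, and for F8 only 1 of the 2 passed the filter on dim probes. The sequences below are those of the array files, with mm9 positions. They show the F8 pair, a Tfpi probe that agreed in sign with its brighter partner, and an F3 probe. On every array most spots of that F3 probe were not well above background. The first F8 probe (chrX:72455821-72456709, minus strand) has 60 bases laid over 889 bases of genome, and it stood for the gene. The second F8 probe (chrX:72577870-72577929, minus strand) lies 121 kb away. The Tfpi probe shown is 1 of 3 (chr2:84284179-84284238, minus strand), and the F3 probe shown is 1 of 2 (chr3:121434609-121435346, plus strand), with 60 bases over 738 bases of genome.
F8, first probe: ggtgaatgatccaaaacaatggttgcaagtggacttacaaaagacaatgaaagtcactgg
F8, second probe: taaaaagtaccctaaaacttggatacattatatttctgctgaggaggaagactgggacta
Tfpi: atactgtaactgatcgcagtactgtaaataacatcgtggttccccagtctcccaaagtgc
F3: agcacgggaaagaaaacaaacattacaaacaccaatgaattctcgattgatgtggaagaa
Exon and untranslated region annotation of mm9 was not used here.

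A level here is the log2 of the background-subtracted spot signal, averaged over a probe's spots, minus the 75th percentile of that array, so a level of 0 equals that percentile. Differences are ACKR4-positive minus ACKR4-negative, with the standard error of the fit and n = 2 arrays per group. A gene was tested if most spots of its probe stood well above background on both arrays of ACKR4-positive cells or on both of ACKR4-negative cells, which 17362 genes met. A gene is called if its adjusted p (limma, 2-sided, Benjamini-Hochberg over the 17362 genes) is under 0.05. Across all tested genes 976 were called, 5.62%, of which 332 were higher (1.91%) and 644 lower (3.71%) in ACKR4-positive cells. With the sort as a block 2656 were called (15.3%). The median difference of all tested genes was 0.04.

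Probes well above background numbered 22976 and 21663 on the ACKR4-positive arrays and 21972 and 22365 on the ACKR4-negative arrays. Ackr4 itself had levels of -0.21 and 2.55 in ACKR4-positive cells, against -7.53 and -7.50 in ACKR4-negative cells, where it was not well above background. It was called higher (adjusted p = 0.0181). With each dim value raised to the dimmest detected level of its array, named the floor here, it was 107.4-fold higher. ACKR4-negative replicate 1 had a weak signal of spiked-in control RNA, with a median of 846.7 against 2804 to 3432 on the other 3 arrays. It also stood apart in erythroid markers, whose summed level was 18.2 and 69.3 times the 75th percentile in ACKR4-positive cells, against 475 and 26.8 in ACKR4-negative cells. Of 12 endothelial markers, 3 fell (Esam by -1.92, Kdr by -2.71 and Emcn by -5.24) and none rose. With the sort as a block 4 were lower and 1 higher. The summed level of the 12 was 526 and 683 times the 75th percentile in ACKR4-positive cells, against 744 and 800 in ACKR4-negative cells. That sum follows its brightest members, Cldn5 and Egfl7, which were not called, and shows little of the fall of Emcn. Pecam1, which encodes CD31, and the junction gene Cdh5 were not called, with differences of -0.15 and -0.69. Ptprc, which encodes CD45, did not pass the filter on dim probes in either group.

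Among the procoagulant genes, Vwf was far lower in ACKR4-positive cells, and F3 was not well above background in either group. F8 had higher levels on both ACKR4-positive arrays but did not pass the test in the fit that leaves the sort out. Vwf encodes von Willebrand factor, which endothelium and megakaryocytes make. Its probe (chr6:125636551-125636610, plus strand) had levels of -3.13 and -2.63 in ACKR4-positive cells, against 3.33 and 4.14 in ACKR4-negative cells. The groups were far apart, and the probe was well above background on all 4 arrays, so Vwf RNA was still detected in ACKR4-positive cells. The difference was -6.61 ± 0.41 (95% interval -7.70 to -5.52, adjusted p = 0.00776), which is 97.7-fold lower. It was -6.46 within the sort of replicate 1 and -6.76 within that of replicate 2. In a sorted population, fewer cells with Vwf and less Vwf RNA per cell cannot be told apart, and the same holds for every gene below.

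The change in Vwf moved together with markers of megakaryocytes and platelets. Of 15 such markers 12 fell and none rose, with a median difference of -7.26. Their summed level was 4.65 and 6.88 times the 75th percentile in ACKR4-positive cells, against 116 and 258 in ACKR4-negative cells. Such sums follow the brightest members. These were Itgb3 in ACKR4-positive cells (levels of 1.75 and 2.02, not called) and Ppbp and Pf4 in ACKR4-negative cells. Itga2b, Tubb1, Gp5, Gfi1b and Gp6 were not well above background on either ACKR4-positive array. Markers of mural cells, described with Plat below (median difference -3.79), and the endothelial markers Esam, Kdr and Emcn were lower too. These 4 arrays cannot tie Vwf to a particular list. The part of any such cells in the Vwf difference was not tested. By closeness of their 4 centred levels, the 3 tested genes most like Vwf were Mpig6b, Clec1b and Tlr12, with root mean square differences of 0.0657, 0.138 and 0.19 on the log2 scale. With 2 arrays per group such closeness mostly reflects a like group difference (-6.59, -6.54 and -6.26). It is no separate evidence of a link, here or for Thbd and Plat below. Clec1b was well above background on all 4 arrays, whereas Mpig6b and Tlr12 were not on either ACKR4-positive array, so their closeness there rests on background values. Mpig6b encodes a receptor of megakaryocytes and platelets, and Clec1b encodes the platelet receptor CLEC-2.

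F8 encodes factor VIII, the cofactor of factor IX, which is made by endothelium. Its first probe had levels of 2.07 and 0.95 in ACKR4-positive cells, against -0.48 and -0.78 in ACKR4-negative cells. The groups did not overlap, but the ACKR4-positive arrays lay over 1 unit apart. The difference of 2.14 ± 0.46 (95% interval 0.91 to 3.37), 4.40-fold, was not called (adjusted p = 0.0919). With the sort as a block it was called (adjusted p = 0.00803, standard error 0.28), and likewise without ACKR4-positive replicate 2 (2.70, adjusted p = 0.0420). It was not called without ACKR4-positive replicate 1 (1.58, adjusted p = 0.172), ACKR4-negative replicate 1 (2.29, adjusted p = 0.228) or ACKR4-negative replicate 2 (1.99, adjusted p = 0.300). The second F8 probe had levels of -3.74 and -5.44 in ACKR4-positive cells, against -4.80 and -6.76 in ACKR4-negative cells. It was well above background in replicate 1 of each group only and was not tested. In replicate 1 it differed by 1.06, and in replicate 2 both groups were below that standard, so no order can be read there.

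F3 encodes tissue factor, the trigger of clotting. The F3 probe not printed above (chr3:121437717-121437776, plus strand) had levels of -5.80 and -5.62 in ACKR4-positive cells, against -6.28 and -7.32 in ACKR4-negative cells. The probe printed above had levels of -6.16 and -7.01 in ACKR4-positive cells, against -6.69 and -6.96 in ACKR4-negative cells. Neither probe was well above background on any array, so F3 did not pass the filter and no order of its groups can be read from these values. With no filter on dim probes it was fitted and not called (1.09 ± 0.45, adjusted p = 0.513).

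**Figure D1:**
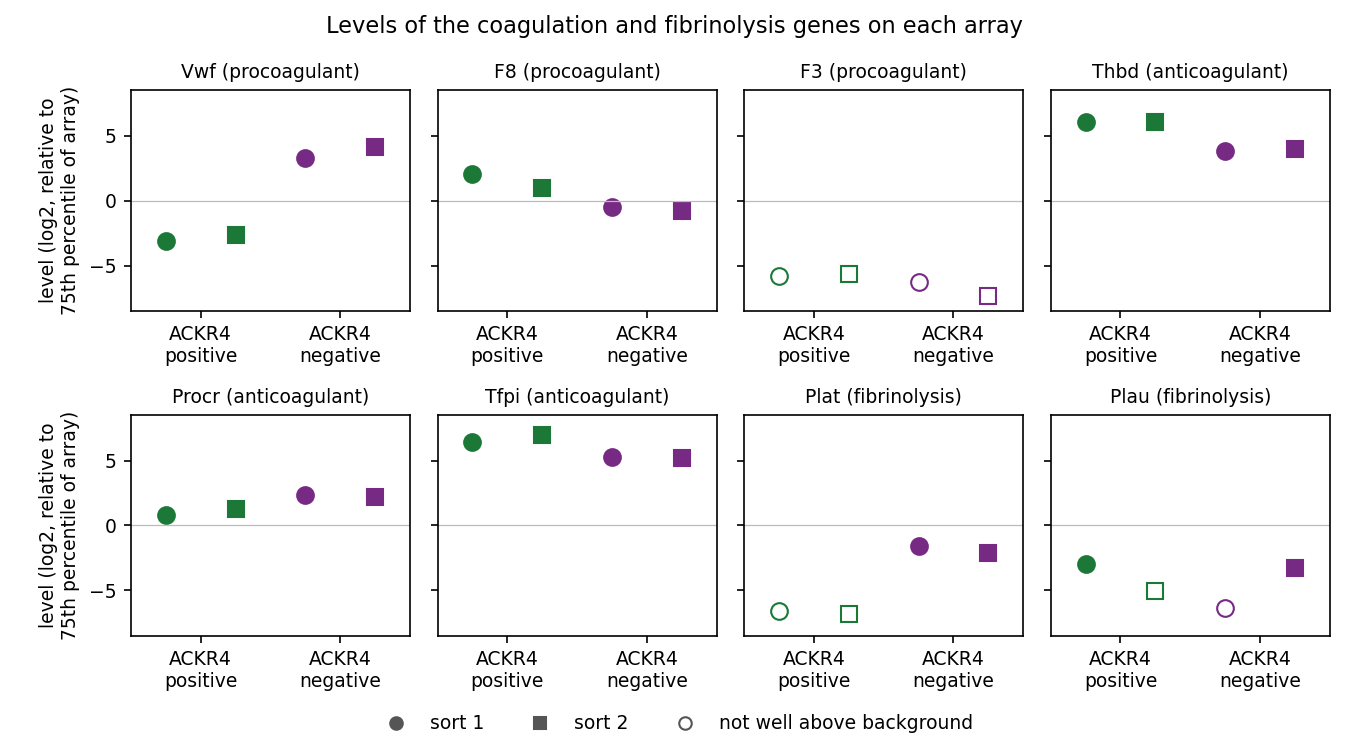
Level of each of the 8 genes on each array (log2, relative to the array's 75th percentile), with ACKR4-positive arrays left of ACKR4-negative arrays, circles for the sort of replicate 1, squares for that of replicate 2, and open symbols for arrays on which the probe was not well above background. The probe shown is the one that stood for the gene, or the first listed where none was tested. Vwf and Plat lie low in ACKR4-positive cells, Thbd and Tfpi lie high, and the groups overlap for Plau.

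The anticoagulant genes did not move as 1 group: Thbd rose in ACKR4-positive cells, and Tfpi had higher and Procr lower values there. Neither Tfpi nor Procr passed the test in the fit that leaves the sort out, and both did with the sort as a block. Thbd encodes thrombomodulin, which binds thrombin and turns it toward protein C. Its probe (chr2:148230235-148230294, minus strand) had levels of 6.05 and 6.06 in ACKR4-positive cells, against 3.80 and 4.00 in ACKR4-negative cells. Both groups were tight and did not overlap. The difference was 2.16 ± 0.27 (95% interval 1.45 to 2.87, adjusted p = 0.0238), 4.47-fold higher, and was 2.26 and 2.06 within the sorts. Without any 1 of the 4 arrays the difference was 2.06 to 2.26 and was no longer called (adjusted p = 0.0825 without ACKR4-positive replicate 1, 0.0664 without ACKR4-positive replicate 2, 0.149 without ACKR4-negative replicate 1 and 0.111 without ACKR4-negative replicate 2). Among the genes most like Thbd over the 4 arrays were Hs3st1 and Ypel2, with root mean square differences of 0.0323 and 0.0558. Hs3st1, a heparan sulfate sulfotransferase, is itself on the list of anticoagulant genes below.

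Procr encodes the endothelial protein C receptor, which presents protein C to the thrombin and thrombomodulin complex. Its probe (chr2:155580945-155581004, plus strand) had levels of 0.79 and 1.27 in ACKR4-positive cells, against 2.31 and 2.16 in ACKR4-negative cells. ACKR4-positive arrays were both below ACKR4-negative arrays. The difference of -1.21 ± 0.31 (95% interval -2.03 to -0.39) was not called (adjusted p = 0.137), and with the sort as a block it was (adjusted p = 0.0357).

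Tfpi encodes tissue factor pathway inhibitor, which blocks factor Xa and the complex of tissue factor with factor VIIa. Its brightest probe (chr2:84273059-84273118, minus strand) had levels of 6.42 and 6.96 in ACKR4-positive cells, against 5.26 and 5.20 in ACKR4-negative cells. The difference of 1.46 ± 0.32 (95% interval 0.63 to 2.30), 2.76-fold, was not called (adjusted p = 0.0897). It was called with the sort as a block (adjusted p = 0.0188) and after quantile normalization (1.68, adjusted p = 0.0482). The other 2 probes, up to 11.1 kb away, pointed the same way. The probe at chr2:84281022-84281081 had levels of 5.32 and 5.45 in ACKR4-positive cells, against 4.15 and 4.28 in ACKR4-negative cells. The printed probe had levels of 5.79 and 5.74 in ACKR4-positive cells, against 4.86 and 3.77 in ACKR4-negative cells. In a fit on probes their differences were 1.17 ± 0.28 (adjusted p = 0.117) and 1.45 ± 0.45 (adjusted p = 0.215). All 3 probes thus had both ACKR4-positive arrays above both ACKR4-negative arrays, and none was called in that fit.

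Thbd, Procr and Tfpi all lie on chromosome 2. Promoter sequence was matched for 4 of the 8 genes (F3, F8, Procr and Tfpi) in the RefSeq tables of GRCm38.p6. The windows of Tfpi and Procr, 250 bases before the annotated start, are printed because both genes act against clotting and their values lay on opposite sides of 0. Capitals mark matches on either strand to TGACTCA (a core of AP-1 sites), GGAAG (a core of ETS sites) and CACCC (a core of KLF sites). The Tfpi window is at chr2:84476760-84477009 on the minus strand, 1 of 2 Tfpi starts in the table, and the Procr window at chr2:155750967-155751216 on the plus strand.
Tfpi promoter: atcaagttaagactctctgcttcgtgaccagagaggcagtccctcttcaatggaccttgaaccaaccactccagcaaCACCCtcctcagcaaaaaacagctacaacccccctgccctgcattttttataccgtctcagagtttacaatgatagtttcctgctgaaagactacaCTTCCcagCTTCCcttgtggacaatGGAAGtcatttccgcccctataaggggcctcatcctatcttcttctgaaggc
Procr promoter: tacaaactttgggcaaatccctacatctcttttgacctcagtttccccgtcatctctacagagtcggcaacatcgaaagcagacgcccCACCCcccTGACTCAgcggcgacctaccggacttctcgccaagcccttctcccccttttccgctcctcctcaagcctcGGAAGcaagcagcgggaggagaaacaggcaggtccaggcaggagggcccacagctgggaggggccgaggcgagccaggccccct
The Procr window held 1 AP-1 match, which 4.46% of 32851 mouse promoter windows of the same length hold, and the Tfpi window held 0. The Tfpi window held 3 ETS matches and the Procr window 1, and 64.1% of all windows hold at least 1. Each window held 1 KLF match, as 52% of windows do at least once. These matches describe letters and say nothing of binding.

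**Figure D2:**
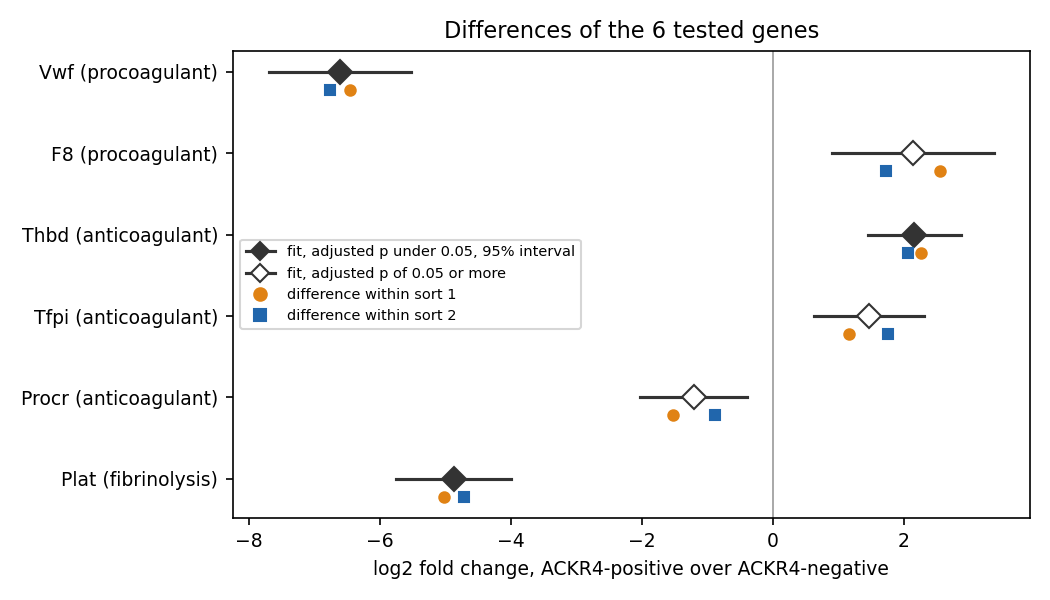
Log2 fold change of the 6 tested genes, ACKR4-positive over ACKR4-negative, with diamonds for the fit (filled where called), lines for the 95% interval, and circles and squares for the difference within each sort. Vwf and Plat lie far to the left, Thbd, F8 and Tfpi to the right, and both sorts fall on the same side of 0 for each gene.

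Set side by side, the values of procoagulant and anticoagulant genes did not split by direction. Without the block only Vwf, lower, and Thbd, higher, were called among them, so the calls hold 1 gene per class. Of the 3 procoagulant genes 2 were tested, with differences of -6.61 for Vwf and 2.14 for F8. Their median of -2.24 is the midpoint of these opposite values. All 3 anticoagulant genes were tested, with differences of 2.16, 1.46 and -1.21 and a median of 1.46, beside 0.04 for all tested genes. Each class therefore held a gene with values above 0 and one with values below 0. F8 and Vwf, whose proteins circulate bound to each other, had opposite signs.

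Of the plasminogen activators, Plat fell in ACKR4-positive cells and Plau gave no stable difference. Plat encodes tissue plasminogen activator, the main activator that endothelium releases. Its probe (chr8:23892531-23892590, plus strand) had levels of -6.59 and -6.85 in ACKR4-positive cells, where it was not well above background, against -1.56 and -2.12 in ACKR4-negative cells. Plat was 14.2-fold lower in ACKR4-positive cells with dim values raised to the floor, the dimmest detected level of each array. Some probes that are not well above background lie above that floor, so such folds are estimates and not limits. The fitted difference was -4.88 ± 0.33 (adjusted p = 0.00930), and it was -5.03 and -4.72 within the sorts. After normexp background correction it was -1.99 (adjusted p = 0.0326). The 3 genes nearest to Plat in centred levels were Ano1, Shtn1 and Edn1, but Plat itself was at background on both ACKR4-positive arrays, so their order cannot be read. Ano1 encodes a chloride channel and Edn1 the vasoconstrictor endothelin-1.

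Plat also moved with markers of mural cells, the smooth muscle cells and pericytes of vessel walls. Of 11 such markers 10 were tested, 4 fell (Kcnj8, Abcc9, Myh11 and Cspg4) and none rose, with a median difference of -3.79. Their summed level was 2.99 and 3.40 times the 75th percentile in ACKR4-positive cells, against 60.4 and 102 in ACKR4-negative cells. The sort took CD31-positive cells, and mural cells as a rule lack CD31. Megakaryocyte and platelet markers (median difference -7.26) and the endothelial markers Esam, Kdr and Emcn were lower too. These 4 arrays cannot tie Plat to a particular list. The part of any such cells in the Plat difference was not tested.

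Plau encodes urokinase, the activator that works at cell surfaces. Its probe (chr14:21662242-21662301, plus strand) had levels of -3.01 and -5.08 in ACKR4-positive cells, against -6.36 and -3.28 in ACKR4-negative cells. The groups overlapped, and the probe was well above background on 1 array of each group only. The differences within the sorts were 3.35 and -1.80, of opposite sign, and Plau did not pass the filter. With no filter on dim probes it was fitted and not called (0.77 ± 1.17, adjusted p = 0.972).

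Of the 8 genes, 6 passed the filter on dim probes, and 3 of these were called, beside 5.62% of all tested genes. Thbd was the 1 called higher, beside 1.91%, and Vwf and Plat were the 2 called lower, beside 3.71%. In all 6 tested genes the groups did not overlap, as in 44.9% of all tested genes. With the sort as a block all 6 were called, 3 higher, beside 6.75% of all tested genes, and 3 lower, beside 8.55%. Without ACKR4-negative replicate 1, the array that stood apart, Vwf differed by -7.02 (adjusted p = 0.0176) and Plat by -4.60 (adjusted p = 0.0285), both still called. A gene could pass the filter through 1 group alone, as Plat did.

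The wider network was read from 63 other genes of clotting, its inhibitors, fibrinolysis, thrombin receptors, and storage and release of von Willebrand factor. Of these 44 were tested, and 2 were higher and 7 lower in ACKR4-positive cells, beside 1.91% and 3.71% of all tested genes. Their median difference was -0.06, beside 0.04 for all tested genes. With the sort as a block 5 were higher and 12 lower, beside 6.75% and 8.55% of all tested genes. The same shares stand beside the counts of each list below.

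Of 15 clotting factors 5 were tested, 1 fell and none rose, with a median of -0.33. F13a1 encodes the A subunit of factor XIII, which cross-links fibrin and is carried by platelets and macrophages. It had levels of -7.95 and -6.60 in ACKR4-positive cells, where it was not well above background, against 0.05 and 0.39 in ACKR4-negative cells. It was 59.3-fold lower by the floor (fit -7.49 ± 0.53, adjusted p = 0.00974). F5 encodes factor V, which platelets carry as well as plasma. It had levels of -2.21 and -4.12 in ACKR4-positive cells, against 0.48 and 0.38 in ACKR4-negative cells, and its difference of -3.59 ± 0.68 was not called (adjusted p = 0.0659). F5 was called with the sort as a block (adjusted p = 0.00721) and without either ACKR4-positive array (-4.54, adjusted p = 0.0244 without replicate 1, and -2.64, adjusted p = 0.0405 without replicate 2). A dimmer F5 probe was called in the fit on probes (-5.37 ± 0.65, adjusted p = 0.0208). F9, which encodes factor IX, had a difference of 0.25 ± 0.41 and Klkb1, which encodes plasma prekallikrein, one of -0.33 ± 0.58, and neither was called. The summed megakaryocyte and platelet markers given with Vwf moved with F13a1 and F5 too, as did the mural markers and the endothelial markers Esam, Kdr and Emcn. Their part was not tested.

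All 8 genes for processing of clotting factors were tested and none was called, with a median of 0.41 and 1 higher and 1 lower under the block. Mcfd2, whose protein exports factors V and VIII from the endoplasmic reticulum with Lman1, had levels of 6.31 and 6.32 in ACKR4-positive cells, against 5.10 and 4.57 in ACKR4-negative cells (1.48 ± 0.31, adjusted p = 0.0854, and 0.0166 under the block). Furin, a protease that cuts the von Willebrand factor precursor, had levels of -0.39 and -0.56 in ACKR4-positive cells, against 0.70 and 0.60 in ACKR4-negative cells (-1.13 ± 0.27, adjusted p = 0.115, and 0.0253 under the block). Tpst1, a tyrosine sulfotransferase, had a difference of -0.96 ± 0.31 (adjusted p = 0.229).

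Of 12 other anticoagulant genes 7 were tested, 2 rose and none fell, with a median of 0.82. Gas6, a vitamin K-dependent ligand of TAM receptors that is related to protein S, had levels of 5.58 and 5.63 in ACKR4-positive cells, against 2.34 and 2.92 in ACKR4-negative cells (2.97 ± 0.32, adjusted p = 0.0180). Gas6 is listed for that kinship and is itself known to favour platelet responses in mice. Hs3st1 makes the heparan sulfate that binds antithrombin. It had levels of 0.35 and 0.43 in ACKR4-positive cells, against -1.92 and -1.66 in ACKR4-negative cells (2.18 ± 0.27, adjusted p = 0.0244). Pros1, which encodes protein S, the cofactor of activated protein C, had levels of 4.72 and 4.19 in ACKR4-positive cells, against 3.35 and 3.19 in ACKR4-negative cells, and was called under the block only (1.19 ± 0.32, adjusted p = 0.153, and 0.0269 under the block). Anxa5, which covers phosphatidylserine, had a difference of 0.82 ± 0.36 (adjusted p = 0.388) and Proc, which encodes protein C, one of 0.69 ± 0.29 (adjusted p = 0.374). Gas6 was no longer called when ACKR4-positive replicate 1 (3.00, adjusted p = 0.0568) or ACKR4-negative replicate 1 (2.68, adjusted p = 0.0775) was left out, nor was Hs3st1 without any 1 array (2.05 to 2.30, adjusted p = 0.0812 and 0.0702 without ACKR4-positive replicates 1 and 2, and 0.151 and 0.107 without ACKR4-negative replicates 1 and 2).

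Of 12 fibrinolysis genes beside Plat and Plau 10 were tested, 3 fell and none rose, with a median of 0.09. Those described here are serpins that were not well above background on either ACKR4-positive array. Serpinb2, which encodes PAI-2, had levels of -7.59 and -7.24 in ACKR4-positive cells, against -2.40 and -1.63 in ACKR4-negative cells. It was 12.6-fold lower by the floor (fit -5.40 ± 0.38, adjusted p = 0.00974). Serpine2, which encodes protease nexin 1, an inhibitor of thrombin and urokinase, had levels of -7.87 and -6.60 in ACKR4-positive cells, against -3.43 and -3.47 in ACKR4-negative cells. It was 4.65-fold lower by the floor (fit -3.78 ± 0.50, adjusted p = 0.0266). Serpine2 was not called after normexp background correction (-1.01, adjusted p = 0.234), without ACKR4-negative replicate 1 (-3.76, adjusted p = 0.0781) or without ACKR4-negative replicate 2 (-3.80, adjusted p = 0.0719). Lrp1, a receptor that clears activators bound to their inhibitors, had a difference of -1.46 ± 0.41 (adjusted p = 0.170, and 0.0326 under the block). Anxa2, which binds tissue plasminogen activator and plasminogen, and Plgrkt, a plasminogen receptor, had differences of 0.59 ± 0.28 and 0.35 ± 0.37 and were not called. Megakaryocyte and platelet markers (median difference -7.26) and mural markers (median -3.79) moved the same way, as did the endothelial markers Esam, Kdr and Emcn. Their part was not tested for the falls in this list.

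Of 4 thrombin receptor genes and their relatives 3 were tested and none was called, with a median of -1.03 and 2 lower under the block. F2r, which encodes the thrombin receptor PAR1, had levels of 5.28 and 5.09 in ACKR4-positive cells, against 6.11 and 6.34 in ACKR4-negative cells (-1.03 ± 0.28, adjusted p = 0.153, and 0.0429 under the block). F2rl2, which encodes PAR3, a thrombin cofactor of mouse platelets, had levels of -6.77 and -6.02 in ACKR4-positive cells, where it was not well above background, against -4.42 and -3.77 in ACKR4-negative cells. It was 2.98-fold lower by the floor and was not called (fit -2.30 ± 0.42, adjusted p = 0.0590, and 0.00258 under the block). F2rl3, which encodes PAR4, had a difference of -0.92 ± 0.34 (adjusted p = 0.301). The F2rl2 difference was called after quantile normalization (-2.22, adjusted p = 0.0479) and on the deposited values (-2.42, adjusted p = 0.0329), and was -0.60 and not called after normexp background correction (adjusted p = 0.573).

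Of 12 genes for storage and release of von Willebrand factor 11 were tested, 3 fell and none rose, with a median of -0.59. Angpt2 encodes angiopoietin-2, which endothelium stores in the Weibel-Palade bodies that hold von Willebrand factor. It had levels of -6.39 and -6.23 in ACKR4-positive cells, where it was not well above background, against 1.33 and 0.26 in ACKR4-negative cells. It was 88.3-fold lower by the floor (fit -7.10 ± 0.44, adjusted p = 0.00776). Selp encodes P-selectin, a cargo of Weibel-Palade bodies and of platelet granules. It had levels of -5.11 and -4.54 in ACKR4-positive cells, against -1.44 and -1.48 in ACKR4-negative cells (-3.36 ± 0.32, adjusted p = 0.0143). Stx3 encodes a syntaxin that acts in granule fusion, and had levels of -3.94 and -4.02 in ACKR4-positive cells, against -0.58 and -1.39 in ACKR4-negative cells (-2.99 ± 0.37, adjusted p = 0.0243). The Selp call was lost without ACKR4-negative replicate 1 (-3.34, adjusted p = 0.0562) or ACKR4-negative replicate 2 (-3.39, adjusted p = 0.0524), and Stx3 was uncalled without ACKR4-positive replicate 1 (-3.03, adjusted p = 0.0710), ACKR4-positive replicate 2 (-2.95, adjusted p = 0.0601) or ACKR4-negative replicate 1 (-2.59, adjusted p = 0.0848). Rab27a, which controls release of the granules, had a difference of 1.12 ± 0.53 (adjusted p = 0.438, and 0.0292 under the block). Hps6, which serves the making of lysosome-related granules, and Cd63, a membrane protein of Weibel-Palade bodies, had differences of -0.82 ± 0.34 and -0.78 ± 0.38 and were not called. The megakaryocyte, platelet and mural markers also moved with Angpt2, Selp and Stx3. So did 3 of 12 endothelial markers (Esam, Kdr and Emcn), with none called higher. The part of any of these cells was not tested.

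Several called falls of dim genes were smaller after normexp background correction, which adds an offset of 50 to each signal. F13a1 then differed by -3.84, Angpt2 by -4.30, Serpinb2 by -1.96 and Selp by -1.89, and all 4 were still called.

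**Figure D3:**
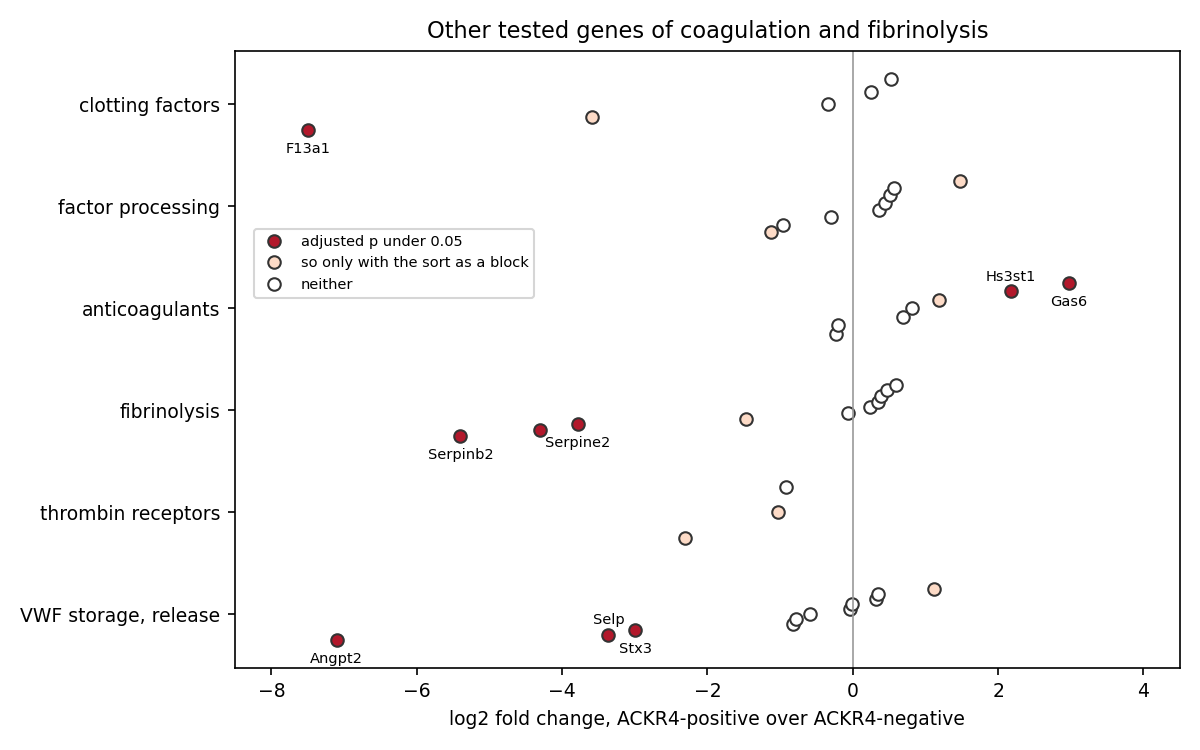
Log2 fold change, ACKR4-positive over ACKR4-negative, of the 44 other tested genes in 6 lists, 1 point per gene, dark where called, pale where called only with the sort as a block, and white otherwise. The 7 called falls lie between -7.49 for F13a1 and -2.99 for Stx3, and the 2 called rises are Hs3st1 and Gas6.

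The remaining marker lists held few calls without the block. Of fibroblastic markers 9 were tested and none was called (2 higher and 3 lower under the block), with summed levels of 2.90 and 3.82 in ACKR4-positive cells, against 3.11 and 4.38 in ACKR4-negative cells. Of 12 macrophage markers 8 were tested and none was called (3 lower under the block), with sums of 2.97 and 2.30 in ACKR4-positive cells, against 2.98 and 3.63 in ACKR4-negative cells. Granulocyte and monocyte markers (3 tested) had no call, and 2 were lower under the block. Their sums were 56.8 and 115 in ACKR4-positive cells, against 58.8 and 106 in ACKR4-negative cells. Csf3r, the brightest of them, differed by 0.08 (adjusted p = 0.972). Lyz2 had levels of -6.66 and -1.72 in ACKR4-positive cells, against 1.04 and 1.46 in ACKR4-negative cells (-5.44 ± 1.67, adjusted p = 0.206, and 0.0263 under the block). S100a9 differed by -2.25 ± 2.59 (adjusted p = 0.800, and 0.0248 under the block). Mesothelial markers (2 tested) had no call, and 1 was higher and 1 lower under the block. Msln had levels of -4.30 and -1.62 in ACKR4-positive cells, against -7.46 and -7.45 in ACKR4-negative cells, where it was not well above background (fit 4.49 ± 0.93, adjusted p = 0.0812, and 0.0102 under the block). Of 6 lymphocyte markers Lck fell, and of 5 tested erythroid markers Epor fell.

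**Figure D4:**
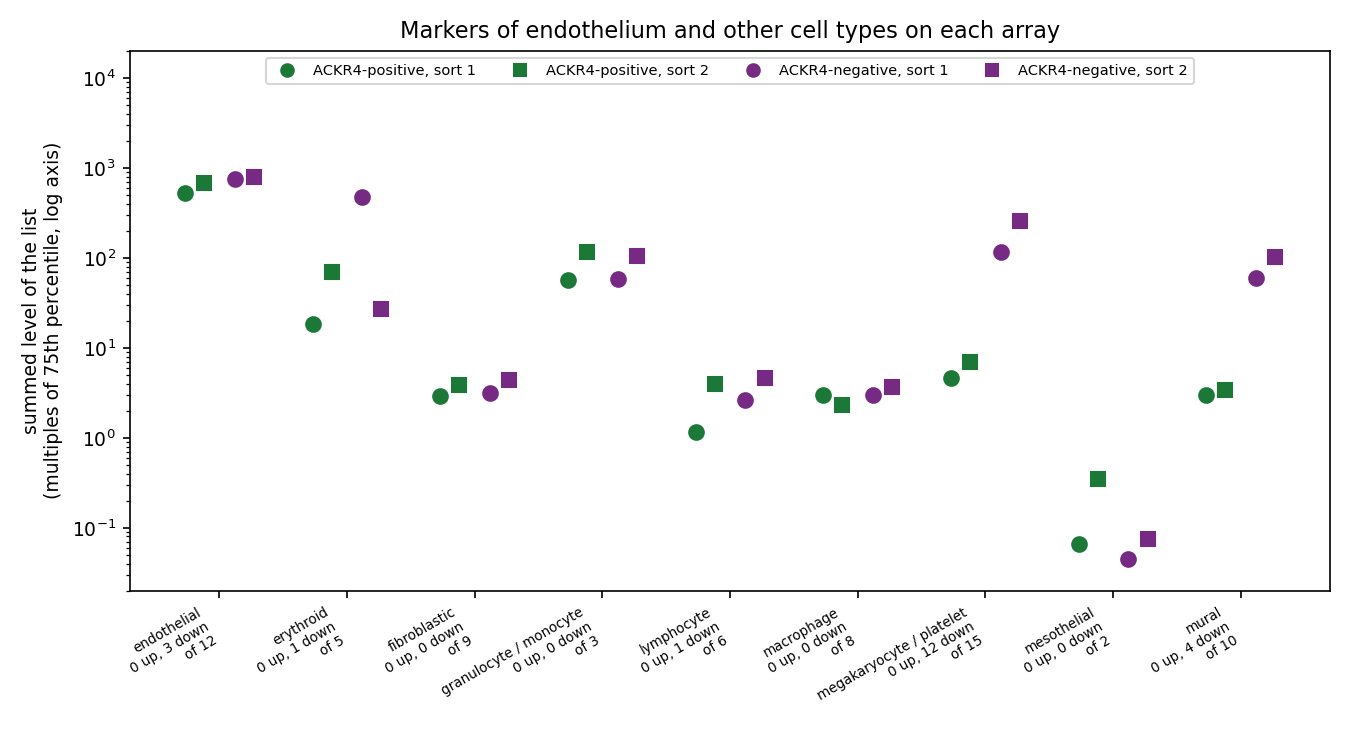
Summed level of each marker list on each array, in multiples of the array's 75th percentile on a log axis, with ACKR4-positive arrays left of ACKR4-negative arrays and the number of markers called in each direction under each list. Megakaryocyte and platelet markers (4.65 and 6.88 against 116 and 258) and mural markers (2.99 and 3.40 against 60.4 and 102) lie lower in ACKR4-positive cells. The sums of endothelial markers (526 and 683 against 744 and 800) lie closer together, though 3 of these 12 markers were called lower.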

How the data were processed

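RNA of sorted spleen cells was amplified from 6 to 20 ng and measured on 4 arrays of 1 slide, read in 1 scan. The processed signal used here is an intensity, which the authors made in Agilent Feature Extraction 10.7.3.1. It is background-subtracted per the file headers and not scaled between arrays. Spots flagged as outliers (1.91% to 1.96% per array) were left out, and the rest of a probe's 4 spots were averaged after log2 and set against the 75th percentile of their array. The number of arrays limits the precision. Probes were named through the RefSeq gene table of GRCm38.p6 (27508 by accession, 3544 by current symbol, 167 through another probe of the gene, and 8210 by the name in the file). The brightest tested probe stood for a gene. Group means were compared with limma 3.58.1 (lmFit and eBayes) in R 4.3.3, with Python 3.11.15, pandas 2.3.3 and matplotlib 3.10.9 for sequences and figures.

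The sort number pairs the arrays, a reading of the labels: the 2 arrays with 1 replicate number share a mouse number in their titles. Deviations from the group means correlated at 0.605 between same-numbered arrays over 17362 genes. The fit used for calls leaves the sort out because no method in the labels uses it. On simulated arrays of the ACKR4-positive against ACKR4-negative comparison (17362 genes, 50 changed genes per size) the fit called 0% of log2 changes of 1, 2% of 2, 52% of 4 and 80% of 6. The simulated noise was independent on each array, without the correlation between same-numbered arrays. Fewer genes were changed in it than were called in the data. These shares therefore do not give the power of the fit on the data. The 15 alternatives covered background correction, normalization, centring, probe filters and summaries, the deposited table, the prior, the block and leaving out each array.

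Named were the 8 genes, every called gene of the 6 other coagulation and fibrinolysis lists with up to 3 more per list of smallest p (27 genes), and the 3 genes nearest in centred levels to each called gene of the 8. Some genes that the rule takes are left out here. Ackr4, marker genes, F10 and Unc13d stand outside that rule and were chosen after their values were seen. The genes and lists were chosen with earlier results of these data known.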

Additional observations from a re-analysis of the deposited data

How the results depend on the processing

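Vwf and Plat kept their direction and stayed called under every alternative that tested them, with differences of -7.02 to -6.21 for Vwf and -5.16 to -4.60 for Plat when arrays were left out in turn. Under the stricter filter on dim probes Plat was not tested, so 1 of the 8 genes was called lower, and calls fell to 4 of the other coagulation genes and 441 of all genes. Thbd lost its call without any 1 array (2.06 to 2.26), where the group left with 1 array is assumed to vary like the other. Without arrays, F8 ranged from 1.58 to 2.70, Tfpi from 1.20 to 1.73 and Procr from -1.45 to -0.97. The count called higher was then 0 to 1, that of other coagulation genes 4 to 9 and that of all genes 387 to 892. With the sort as a replicate block, F8 (2.14, adjusted p = 0.00803), Tfpi (1.46, 0.0188) and Procr (-1.21, 0.0357) became called, so 3 of the 8 genes were called higher, 17 other coagulation genes were called and 2656 genes in all, including each of the 976 called without it. The block ended no call of a gene named here, and calls gained by the other coagulation genes under it stand in the text. The share of calls that were higher was 34% without the block, 44.1% with it and 19.4% without ACKR4-negative replicate 1. After quantile normalization 2 of the 8 genes were called higher, with Tfpi at 1.68 (adjusted p = 0.0482). Among the 27 other named genes, 363 values kept direction and call, 15 became called, 14 lost the call and 4 changed sign, all uncalled: F9 (-0.022 without ACKR4-positive replicate 2, -0.14 without ACKR4-negative replicate 1, range -0.14 to 0.65), and, without ACKR4-positive replicate 2, Klkb1 (0.39, range -1.06 to 0.39) and Plgrkt (-0.011, range -0.011 to 0.72). The cause of these changes was not tested beyond the smaller number of arrays or genes. The median difference of all genes was 0.04, and 0.11 after median centring. Dim signal limits F3, Plau and the second F8 probe, and with no filter on dim probes F3 and Plau were fitted and not called.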

Other observations

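Factor X was read by 2 probes that disagreed, and the brighter one stood for F10 in the counts above. The brighter probe had levels of 4.60 and 7.75 in ACKR4-positive cells, against 3.60 and 7.69 in ACKR4-negative cells, so it differed by over 3 units between the sorts (0.52 ± 1.71 in the fit on probes, adjusted p = 0.945). The other F10 probe had levels of -7.74 and -7.18 in ACKR4-positive cells, where it was not well above background, against -0.55 and 0.02 in ACKR4-negative cells. It was 42.4-fold lower by the floor (fit -7.19 ± 0.38, adjusted p = 0.00731). Of the 9 other coagulation genes with several tested probes, F10 and F5 were the 2 for which an unused probe was called and the gene was not.

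Unc13d, which encodes a factor that primes granules for release, also had 2 probes of different behaviour. The brighter had levels of 2.43 and -1.73 in ACKR4-positive cells, against 0.06 and -0.05 in ACKR4-negative cells, with ACKR4-positive replicate 1 far above the rest. The other Unc13d probe had levels of -1.74 and -1.95 in ACKR4-positive cells, against -1.38 and -1.10 in ACKR4-negative cells, and its difference of -0.61 ± 0.30 was not called. The values of F10 and Unc13d were chosen after they were seen.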
